A study of Homo sapiens with 24 samples.

Results

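Axon guidance genes were followed in dopaminergic neurons grown as aggregates, during rotenone exposure and after its removal. The group holds the semaphorins, plexins, neuropilins, netrins, netrin receptors, SLIT ligands, ROBO receptors, ephrins and EPH receptors. Probes were included when their RefSeq accession named a protein-coding gene with a symbol starting SEMA, PLXN, EPHA, EPHB, EFNA, EFNB, UNC5 or ROBO, or equal to SLIT1, SLIT2, SLIT3, NRP1, NRP2, NTN1, NTN3, NTN4 or DCC. This rule uses names only and gave 70 of the 21239 genes tested, measured by 99 probes. These were 20 semaphorins, 9 plexins, 2 neuropilins, 3 netrins, the 5 netrin receptors DCC and UNC5A to UNC5D, 3 SLIT ligands, 4 ROBO receptors, 8 ephrins and 14 EPH receptors. The remaining 2, UNC50 (a Golgi protein) and UNC5CL, share the letters of the rule and are not netrin receptors.

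Guidance cues steer growing axons by binding receptors on the growth cone, the motile tip of the axon. Secreted class 3 semaphorins bind neuropilins, which pair with A-type plexins to carry the signal, and mostly repel axons, whereas transmembrane semaphorins bind plexins directly. Netrin attracts axons through DCC and repels them through UNC5 receptors, SLIT ligands repel axons through ROBO receptors, and ephrins on one cell bind EPH receptor tyrosine kinases on another. Several of these cues act on midbrain dopaminergic axons as they grow towards the forebrain.

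LUHMES are 1 human mesencephalic cell line, immortalized by a tetracycline-controlled v-myc, that differentiates into dopaminergic neurons. All cultures were differentiated in 3D on a shaker in medium with cAMP, GDNF, tetracycline and N2. Rotenone, an inhibitor of mitochondrial complex I, or its solvent DMSO in the amount of the higher dose, was added on day 7 of differentiation. Total RNA was labelled with 1 dye and hybridised to 24 Agilent 60-mer arrays, 3 for each of 8 groups. Rotenone was given at 50 nM for 12 h (R50 12 h) or 24 h (R50 24 h), or at 100 nM for 24 h (R100). Cultures of each of these and of DMSO were collected right at the end of exposure, on day 8 (D8), or on day 15 (D15), once rotenone had been washed out and 7 days of recovery had passed. The labels do not say whether the 3 samples of a group were separate cultures, so p-values measure the spread between these samples, which may be technical.

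Replicate numbers were slide numbers. Slide 1 had been repeated on another scan day, and was brought to the level of the other slides by a batch correction. Between 50.9% and 82.4% of probes lay above background on an array, the highest shares on slide 1. D15 DMSO replicate 1 carries a scan name that gives 12 h and does not name DMSO; its group rests on its sample label. D15 R100 replicate 3 stood apart, with a residual SD of 0.45 log2 units against 0.20 to 0.31 on the other arrays. Counts on D15 are given with and without each of these 2 arrays. The neuron marker list (9 genes, all above background in some group) had a summed linear signal of 208826 to 239531 in DMSO on D8. Astrocyte, microglia and oligodendrocyte marker lists summed to at most 139 there, with 2 of 6, 1 of 5 and 3 of 4 tested genes above background on all arrays of some group. Of 11 dopaminergic markers, 8 were above background on all arrays of some group. In DMSO on D8 the dopaminergic list summed to 2133 to 2255 and the 2 glutamatergic markers to 7344 to 8508. The endothelial and mural list summed to 1132 to 1348, with 4 of 6 genes above background on all arrays of some group. GABAergic, serotonergic and fibroblast lists summed to at most 195. The lists differ in length. In bulk RNA, fewer cells of a type and less RNA per cell cannot be told apart.

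All 70 genes passed the filter on dim spots; 53 were above background on all 24 arrays and 11 on fewer than 12. These 11 dim genes were the EPH receptors EPHA1, EPHA6, EPHB1, EPHB4 and EPHB6, with NTN3, NTN4, PLXNA2, ROBO4, SEMA5A and UNC5CL. No probe was saturated. In this text a gene is called when its fold exceeds 1.5 and limma's Benjamini-Hochberg adjusted p, taken over all 21239 genes, is under 0.05. Signals are log2 values after normalization and batch correction. Log2 fold changes are given with their standard errors, and always as the group named first minus the second.

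Promoter sequence is shown for 3 of the genes that the results turn on. SEMA3D is a ligand that fell under rotenone on D8, and EPHA4 had the largest rise between D8 and D15 in DMSO among the 70. UNC5A is a receptor whose R100 change was called different between the days, a call lost in 10 of 23 alternatives. The 250 bases before the RefSeq start in GRCh38.p14 are given 5′ to 3′ on the strand of the gene, with matches to the GC box (GGGCGG), the E-box (CACGTG) and TATAAA, searched on both strands, in capitals; no match overlapped another in these windows. The regions are chr7:85187057-85187306 (minus strand), chr5:176810309-176810558 (plus strand) and, for the second of the 2 starts listed for EPHA4, chr2:221572305-221572554 (minus strand).
SEMA3D: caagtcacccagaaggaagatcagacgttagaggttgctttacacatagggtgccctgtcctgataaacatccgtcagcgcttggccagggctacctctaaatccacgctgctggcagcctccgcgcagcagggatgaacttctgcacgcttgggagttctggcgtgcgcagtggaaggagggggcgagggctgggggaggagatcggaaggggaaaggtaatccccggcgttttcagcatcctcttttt
UNC5A: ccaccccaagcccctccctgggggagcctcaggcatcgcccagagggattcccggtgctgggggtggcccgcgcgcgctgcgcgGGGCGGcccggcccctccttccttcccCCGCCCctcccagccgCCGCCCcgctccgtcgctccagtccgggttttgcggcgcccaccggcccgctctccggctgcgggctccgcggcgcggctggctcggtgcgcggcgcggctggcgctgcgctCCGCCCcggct
EPHA4: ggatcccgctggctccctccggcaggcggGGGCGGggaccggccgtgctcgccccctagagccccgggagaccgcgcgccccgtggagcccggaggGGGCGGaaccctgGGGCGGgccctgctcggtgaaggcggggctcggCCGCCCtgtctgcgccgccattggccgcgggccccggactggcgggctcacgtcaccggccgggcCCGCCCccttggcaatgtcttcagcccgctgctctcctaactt
The SEMA3D window held none of the 3 motifs, the UNC5A window held 4 GC boxes and the EPHA4 window 5. Among the 92 promoters listed for 60 of the 70 genes, 70.7% held a GC box, against 42.6% of all 35116 promoters of this length. An E-box was found in 4.35% of them against 6.34%, and TATAAA in 3.26% against 10.7%. These matches describe the letters only.

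On D8, R100 lowered 4 of the 70 genes and raised 2. NTN1, the secreted netrin that binds DCC and UNC5 receptors, fell by 1.05 ± 0.20 on the log2 scale, and SEMA3D by 0.99 ± 0.17. The other genes that fell were SEMA3A, a secreted repellent that acts through NRP1, and PLXNC1, the plexin that binds SEMA7A. SEMA3B and SEMA5B rose. The 6 called genes are 8.57% of the 70, against 3.45% of all genes called in this comparison (2.02% lower and 1.43% higher). R50 for 24 h called 7 (10% against 2.8% of all genes), 4 lower and 3 higher (background 1.42% and 1.38%). R50 for 12 h called 4 (5.71% against 1.75%), 1 lower and 3 higher (background 0.923% and 0.829%). Together 10 genes were called in at least 1 of the 3 exposures (14.3% against 4.69% of all genes). The 3 comparisons share the same DMSO arrays, and the labels give no DMSO group for each exposure time. A difference between 12 h and 24 h therefore cannot be told apart from one in the time of dosing or handling.

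Without a threshold on fold, 12 of the 70 had an adjusted p under 0.05 in R100 (background 9.48%), 4 higher and 8 lower (background 4.07% and 5.41%). The arrays of R100 and DMSO did not overlap for 27 of the 70, or 38.6% (background 28.5%). In R50 24 h this held for 29 of the 70 (background 28.1%) and in R50 12 h for 20 (background 23.6%). Where arrays are said not to overlap, this describes the arrays that gave the p-value and is no separate test. The median log2 fold change was -0.04 over the 70 and -0.02 over all genes, and the median size without sign was 0.22 against 0.18. On D8 the summed signal of the neuron markers was 208826 to 239531 in DMSO and 200734 to 204527 in R100. The 5 neural progenitor markers, of which SOX2 was above background on no array, summed to 16193 to 20258 and 22956 to 26223. No marker of either list was called in R100, but without a threshold on fold MAP2 was lower at -0.57 (adjusted p = 0.00281), ELAVL4 lower at -0.51 (adjusted p = 0.00724) and VIM higher at 0.42 (adjusted p = 0.0278). In R50 24 h ELAVL4, an RNA-binding protein of neurons, was called at -0.71 (adjusted p = 0.000649) and MAP2 was at -0.49 (adjusted p = 0.0108). All 6 markers of cycling cells lay below DMSO in R100 and in R50 12 h (median -0.44 and -0.37) and 4 of 6 in R50 24 h (median -0.04), none of them called. Their sums were 428 to 1014 in DMSO and 314 to 671 in R100. The part of these shifts in the results was not tested. The family plot shows that called genes of both directions lay within the semaphorins.

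**Figure D1:**
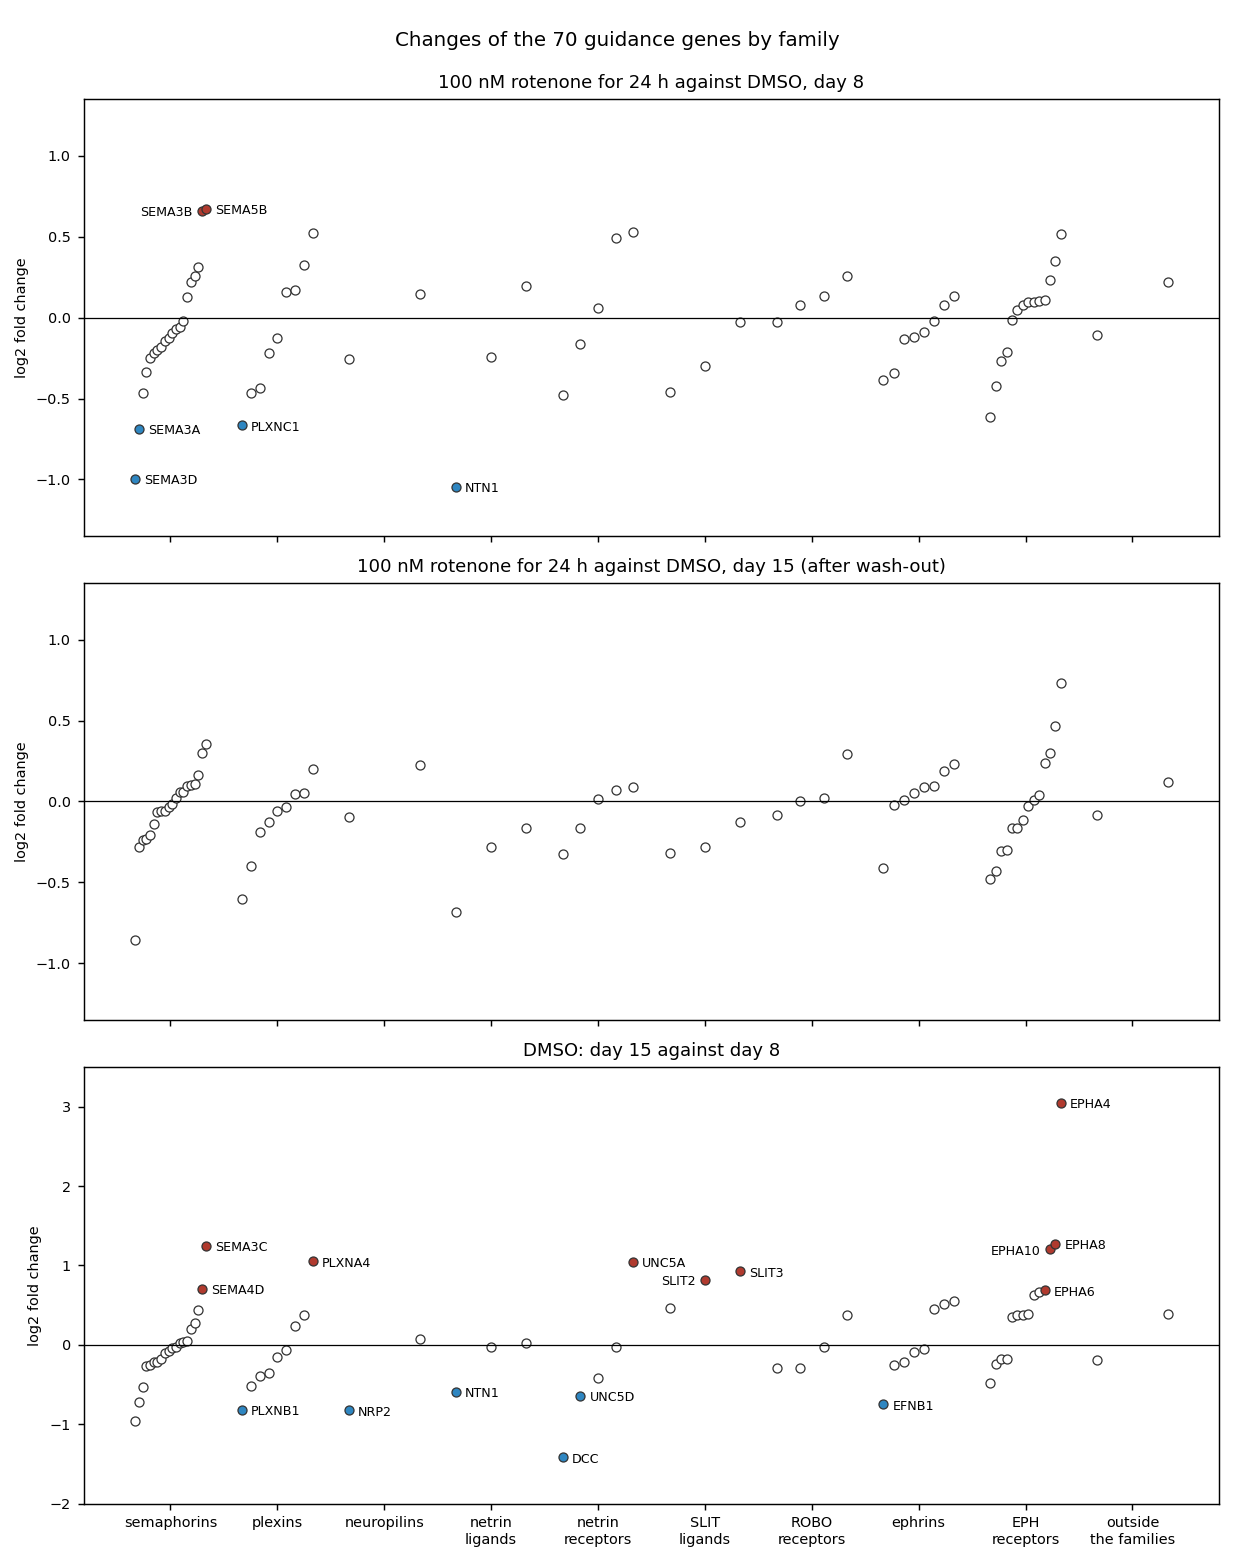
Log2 fold change (y axis) of each of the 70 genes, ordered within its family (x axis), for R100 against DMSO on D8, R100 against DMSO on D15 and D15 against D8 in DMSO; filled points are called, red for higher and blue for lower. The panels hold 6, 0 and 16 called genes, and EPHA4 at 3.05 is the highest point of the last.

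Among the 20 semaphorins, R100 on D8 called 2 lower and 2 higher. SEMA3D, a secreted class 3 semaphorin, had log2 signals of 10.05, 10.26 and 9.74 in the DMSO replicates 1 to 3, and 8.76, 9.29 and 9.01 in R100. Every R100 array lay below every DMSO array. The fold was 1.99 (log2 fold change -0.99 ± 0.17, adjusted p = 0.000729). With R50 it measured 9.73, 9.92 and 9.60 at 12 h and 9.39, 9.14 and 9.08 at 24 h. At 12 h the arrays overlapped those of DMSO (log2 fold change -0.27 ± 0.17), and at 24 h they did not (log2 fold change -0.81 ± 0.17, adjusted p = 0.00451).

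SEMA3A measured 7.42, 7.26 and 7.17 in DMSO and 6.51, 6.70 and 6.57 in R100, with no overlap (log2 fold change -0.69 ± 0.15, adjusted p = 0.00604). In R50 it was also lower on every array than in DMSO, at 6.53, 6.70 and 6.68 after 12 h (log2 fold change -0.64 ± 0.15, adjusted p = 0.0153) and 6.83, 7.00 and 6.71 after 24 h (log2 fold change -0.44, adjusted p = 0.0904). Only R100 and R50 12 h passed the threshold, and the difference between R50 24 h and R50 12 h was 0.21 ± 0.15. The call at 12 h was lost without DMSO replicate 1 (adjusted p = 0.078) or R50 12 h replicate 1 (adjusted p = 0.065).

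SEMA3B and SEMA5B moved the other way. SEMA3B, also secreted, measured 10.05, 10.13 and 10.32 in DMSO, 10.79, 10.77 and 10.78 in R50 24 h and 10.97, 10.42 and 11.08 in R100. Every array of both exposures lay above every DMSO array, with log2 fold changes of 0.61 (adjusted p = 0.0264) and 0.66 (adjusted p = 0.0151). SEMA5B, a transmembrane semaphorin with thrombospondin repeats, was the only semaphorin called in all 3 exposures. It measured 8.72, 8.48 and 8.82 in DMSO, 9.54, 9.25 and 9.31 in R50 12 h, 9.14, 9.47 and 9.21 in R50 24 h and 9.57, 9.10 and 9.37 in R100. All 9 exposed arrays lay above all 3 DMSO arrays, and the log2 fold changes were 0.69 (adjusted p = 0.00664), 0.60 (adjusted p = 0.0126) and 0.67 (adjusted p = 0.00489).

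Both calls were sensitive to single arrays. SEMA3B in R100 missed the threshold without DMSO replicate 1 (adjusted p = 0.0683), DMSO replicate 2 (0.0517), R100 replicate 1 (0.0768) or R100 replicate 3 (0.0902). In R50 24 h it was lost without 5 of the 6 arrays, at adjusted p of 0.0672 to 0.109, and was kept only without DMSO replicate 3. SEMA5B in R100 fell under a fold of 1.5 without DMSO replicate 2 (log2 0.58) or R100 replicate 1 (log2 0.56). In R50 24 h it was lost without DMSO replicate 2 (0.50, adjusted p = 0.0727) or R50 24 h replicate 2 (0.50, adjusted p = 0.0712).

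SEMA4B, a transmembrane semaphorin, was called lower in R50 24 h only, at 5.49, 6.05 and 5.55 against 6.39, 6.46 and 6.13 in DMSO. The groups did not overlap (log2 fold change -0.63 ± 0.19, adjusted p = 0.0439). In R100 it was at -0.25 ± 0.19, and R100 minus R50 24 h was 0.38 (95% confidence interval -0.01 to 0.77). The call ended without any 1 of DMSO replicates 1, 2 or 3 (adjusted p = 0.132, 0.152 and 0.0511) or R50 24 h replicates 1 or 3 (0.189 and 0.16). SEMA4C, likewise transmembrane, fell in R100 by less than the fold threshold (log2 fold change -0.34 ± 0.09, adjusted p = 0.0224). The other semaphorins had an adjusted p above 0.05 in all 3 exposures on D8.

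**Figure D2:**
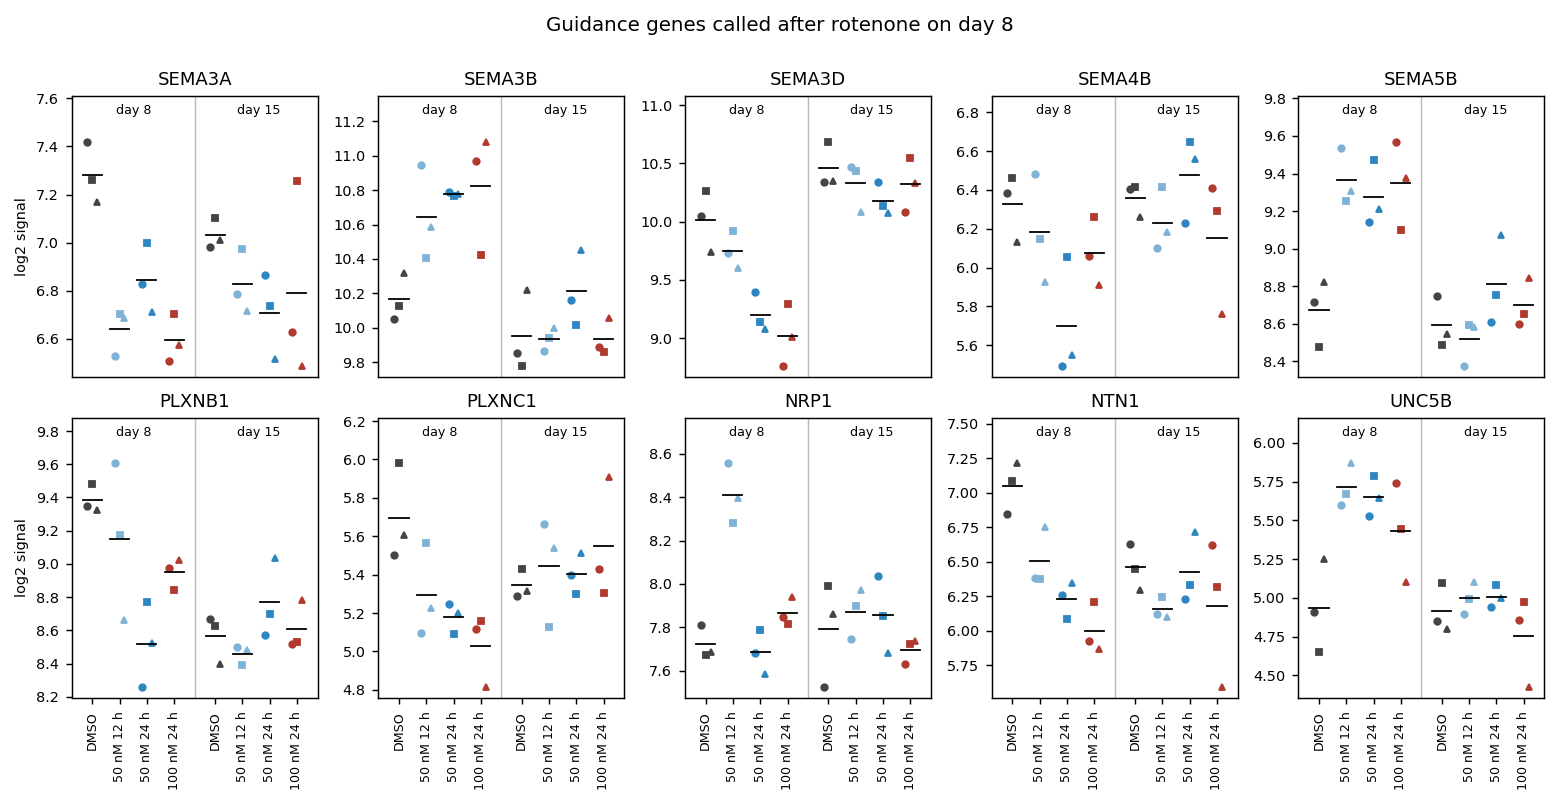
Log2 signal (y axis) of the 10 genes called on D8 in any rotenone exposure, by group (x axis) on D8 and D15; circles, squares and triangles are replicates 1, 2 and 3 and lines are group means. SEMA3D falls from 9.74 to 10.26 in DMSO to 8.76 to 9.29 in R100 on D8, and NRP1 is high on the 3 R50 12 h arrays alone.

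The plexins and neuropilins are the receptors of these ligands. PLXNC1 measured 5.50, 5.98 and 5.61 in DMSO on D8 and 5.12, 5.16 and 4.81 in R100. All R100 arrays were lower (log2 fold change -0.67 ± 0.17, adjusted p = 0.0164). In R50 it was at -0.52 ± 0.17 after 24 h and -0.40 ± 0.17 after 12 h, neither past the threshold. Without DMSO replicate 2 the R100 change was -0.52 (adjusted p = 0.0977) and without R100 replicate 3 it was -0.56 (adjusted p = 0.0899). The call was lost in 8 of 17 alternatives, both of these among them, and the change ran from -0.81 to -0.31. It was also lost with processed signals, a normexp offset of 50, 75th-percentile scaling or no batch correction. The same held with slides 2 and 3 only and with only the compared arrays in the fit.

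PLXNB1, the receptor of SEMA4D, measured 9.35, 9.48 and 9.32 in DMSO and 8.26, 8.77 and 8.53 in R50 24 h, a 1.82-fold fall with no overlap (log2 fold change -0.87 ± 0.18, adjusted p = 0.00474). In R50 12 h it spread widely, at 9.61, 9.17 and 8.66 (log2 fold change -0.24 ± 0.18). In R100 it measured 8.98, 8.84 and 9.02, again below every DMSO array, but its change did not pass (log2 fold change -0.43 ± 0.18, adjusted p = 0.16). R100 minus R50 24 h was 0.43 (unadjusted 95% confidence interval 0.05 to 0.81; adjusted p = 0.9999), so a difference between the doses was not established.

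No A-type plexin, the signalling partners of the neuropilins, was called on D8. PLXNA3 rose in R100 by 0.52 ± 0.15 (adjusted p = 0.0364) and PLXNA4 fell in R50 24 h by 0.44 ± 0.12 (adjusted p = 0.0215), both under the fold threshold. With the brightest probe in place of the mean over probes PLXNA4 was called in R100 and R50 24 h, and with 75th-percentile scaling PLXNA3 was called in R100. The probes of PLXNA4 were of opposite sign and 0.97 apart in R100. PLXNA1 was at 0.16 ± 0.10 in R100. PLXNA2 was above background on 4 of 24 arrays. NRP2, which binds SEMA3F and SEMA3C, was at -0.26 ± 0.09 in R100 (adjusted p = 0.0906).

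NRP1, the receptor subunit that binds SEMA3A, differed between R50 12 h and R50 24 h, which had no DMSO group matched to each time. It measured 7.81, 7.67 and 7.68 in DMSO, 8.56, 8.28 and 8.40 in R50 12 h, 7.68, 7.79 and 7.58 in R50 24 h and 7.85, 7.82 and 7.94 in R100. The 3 arrays of R50 12 h lay above the other 9 arrays of D8. Against DMSO the 12 h change was 0.69 ± 0.12 (adjusted p = 0.00136), while at 24 h it was -0.04 ± 0.12 with R50 and 0.15 ± 0.12 with R100. R50 24 h minus R50 12 h was -0.73 ± 0.12 (adjusted p = 0.00527), and NRP1 was the 1 gene of the 70 called between the times (background 0.226%).

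The array holds 2 NRP1 probes, designed on different transcripts, and they did not move together. The first measured 7.56, 7.56 and 7.70 in DMSO and 9.26, 8.84 and 9.01 in R50 12 h on D8. It rose by 1.43 ± 0.14 (adjusted p = 1.39e-05 in a fit over 48316 probes), and R50 24 h minus 12 h was -1.27 (adjusted p = 0.000824). The other measured 8.06, 7.78 and 7.67 in DMSO and 7.85, 7.72 and 7.79 in R50 12 h, a change of -0.05 (adjusted p = 0.979). The rise of the gene at 12 h therefore rests on 1 probe. In R100 the first probe also lay above DMSO, at 8.24, 7.87 and 8.23 (log2 fold change 0.51, adjusted p = 0.0384). Of the 22 genes with several probes, 3 in R50 12 h, 2 in R50 24 h and 5 in R100 on D8 had probes of opposite sign that lay over 0.5 apart.

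**Figure D3:**
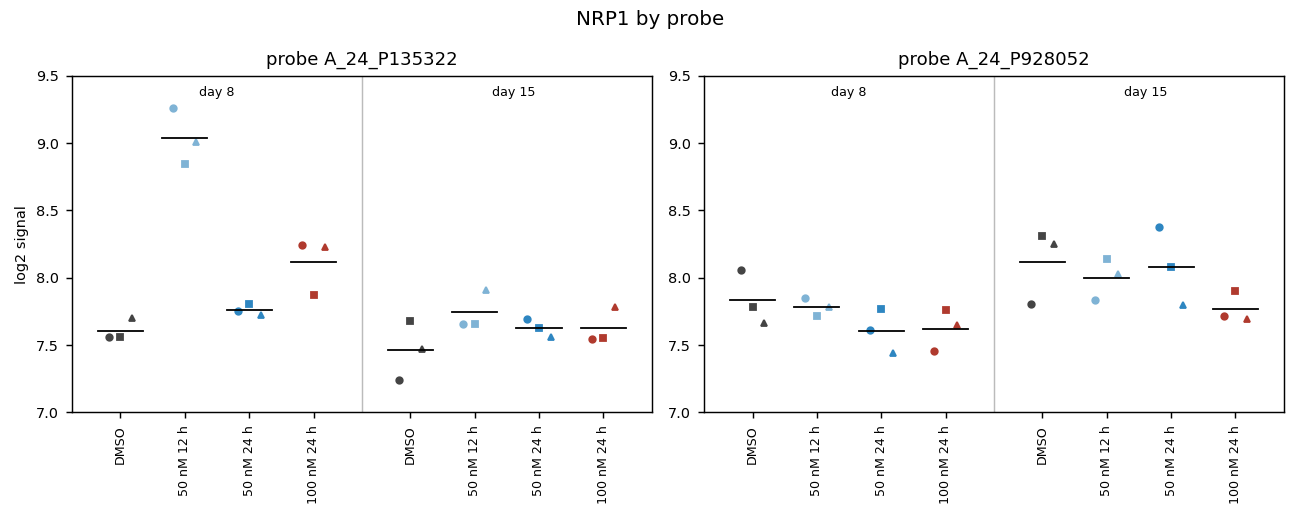
Log2 signal (y axis) of the 2 NRP1 probes by group (x axis) on D8 and D15, with replicates as circles, squares and triangles and group means as lines. One probe stands at 8.84 to 9.26 in R50 12 h on D8 against 7.56 to 7.70 in DMSO, and the other at 7.72 to 7.85 against 7.67 to 8.06.

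NTN1 was the only netrin above background throughout; NTN3 was above it on 9 arrays and NTN4 on 1. On D8 NTN1 measured 6.84, 7.08 and 7.21 in DMSO, 6.38, 6.37 and 6.75 in R50 12 h, 6.25, 6.09 and 6.34 in R50 24 h and 5.92, 6.21 and 5.86 in R100. Each of the 9 exposed arrays was below each DMSO array. The log2 fold changes were -0.54 (adjusted p = 0.141) at 12 h, -0.82 (adjusted p = 0.0146) in R50 24 h and -1.05 (adjusted p = 0.00204) in R100, the last a 2.06-fold fall. R100 minus R50 24 h was -0.23 (95% confidence interval -0.65 to 0.19), so a difference between the doses was not established. The R50 24 h call missed the threshold without DMSO replicate 2 (adjusted p = 0.0511), DMSO replicate 3 (0.0705) or R50 24 h replicate 2 (0.0634).

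Of the 5 netrin receptors, UNC5B was called in both R50 exposures and not in R100. This receptor, also known from blood vessels, measured 4.91, 4.65 and 5.25 in DMSO, 5.60, 5.67 and 5.87 in R50 12 h, 5.53, 5.78 and 5.65 in R50 24 h and 5.74, 5.44 and 5.10 in R100. The R50 arrays lay above all DMSO arrays and those of R100 overlapped them. The changes were 0.78 (adjusted p = 0.00901), 0.71 (adjusted p = 0.0117) and 0.49 (adjusted p = 0.0785), and R100 minus R50 24 h was -0.22 (95% confidence interval -0.58 to 0.13). Without DMSO replicate 2 the R50 12 h change was 0.63 (adjusted p = 0.0613) and the R50 24 h change 0.57 (0.0727). Without R50 24 h replicate 2 the R50 24 h change was 0.65 (0.0546). Both calls were also lost with a normexp offset of 50, with 75th-percentile scaling or without batch correction. The same held with slides 2 and 3 only and with only the compared arrays in the fit. Over 17 alternatives the change ran from 0.34 to 1.34 at 12 h and from 0.31 to 1.23 at 24 h.

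UNC5A rose and UNC5D fell by less than the fold threshold. UNC5A was at 0.53 ± 0.14 in R100 (adjusted p = 0.0228) and 0.51 ± 0.14 in R50 12 h (adjusted p = 0.0447). UNC5D was at -0.48 ± 0.14 in R100 (adjusted p = 0.0415) and -0.58 ± 0.14 in R50 24 h (adjusted p = 0.0149). With Agilent's processed signals UNC5A and UNC5B were called in R100, and with 75th-percentile scaling UNC5A was. With the brightest probe UNC5D was called in R100 and R50 24 h. UNC5C was at 0.06 ± 0.12 and DCC at -0.16 ± 0.19 in R100, neither past the threshold (adjusted p = 0.867 and 0.741).

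No SLIT ligand or ROBO receptor was called on D8. SLIT1 fell in R100 by 0.46 ± 0.12 (adjusted p = 0.0242), under the fold threshold, with 6.24, 6.38 and 6.43 in DMSO and 5.84, 5.97 and 5.85 in R100. SLIT2 was at -0.30 ± 0.15 and SLIT3 at -0.03 ± 0.22. ROBO1 and ROBO2, the main neuronal SLIT receptors, were at -0.03 ± 0.26 and 0.25 ± 0.13.

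The ephrins and EPH receptors also had no called gene on D8 with the main processing. EFNB3, a transmembrane ephrin, was lower in R50 24 h by 0.38 ± 0.11 (adjusted p = 0.0384), and EFNA1, a membrane-anchored one, by 0.49 ± 0.14 (adjusted p = 0.0333). In R100 EFNB3 was at -0.34 ± 0.11 (adjusted p = 0.0555). Of the 14 EPH receptors, EPHA5 alone passed without the fold threshold in R100, at 7.62, 7.84 and 7.99 against 8.25, 8.36 and 8.11 in DMSO (log2 fold change -0.42 ± 0.12, adjusted p = 0.0287). The arrays of EPHA5 did not overlap. EPHA7 had a larger change of -0.61 ± 0.23 that did not pass (adjusted p = 0.107). It was called in R100 with 75th-percentile scaling, with the brightest probe or with only the compared arrays in the fit. With that scaling it was also called in R50 24 h and R50 12 h.

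Within slides, before batch correction, NTN1 in R100 differed from DMSO on slides 1, 2 and 3 by -0.93, -0.86 and -1.37, SEMA3D by -1.26, -0.97 and -0.70 and NRP1 in R50 12 h by 0.74, 0.60 and 0.71. These are the arrays that gave the calls. With slides 2 and 3 alone, which leaves 2 arrays a group, 0 of the 70 were called by limma in each of the 3 exposures on D8, where 260, 213 and 92 of all genes were called in R100, R50 24 h and R50 12 h. At an unadjusted p under 0.05 that fit counted 10 of the 69 guidance genes it tested (14.5%) in each exposure, against 10.2% to 12.5% of all genes it tested. Without batch correction 3, 3 and 2 of the 70 were called in R100, R50 24 h and R50 12 h, where 407, 332 and 170 of all genes were.

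Between R100 and R50 24 h limma called none of the 70 and no gene at all (background 0). At an unadjusted p under 0.05 they differed in 6 of the 70 (background 4.17%): EFNB2, SLIT1, EPHA6, EPHB2, EPHB3 and PLXNB1. EPHA6 was above background in neither group. Between R50 24 h and R50 12 h, SEMA3D was at -0.55 ± 0.17 and PLXNB1 at -0.63 ± 0.18 (adjusted p = 0.184 and 0.143).

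A further 82 genes were listed as co-receptors, other guidance cues and downstream signalling, and 79 of them were tested. R100 on D8 called 6 of them, 2 higher and 4 lower (background 3.45%). The FLRT proteins, leucine-rich proteins that bind UNC5 receptors, were among them. FLRT2 was at -0.97 ± 0.16 (adjusted p = 0.000552) and FLRT3 at -0.72 ± 0.21 (adjusted p = 0.0331), while FLRT1 rose by 0.64 ± 0.20 (adjusted p = 0.0476). SRGAP3, a GTPase-activating protein of the SLIT-ROBO pathway, and FZD3, a Frizzled receptor needed for axon tracts, fell by 0.68 and 0.67, and RAPGEF1, an exchange factor for Rap1, rose by 0.69. R50 24 h called 1 higher (FLRT1) and 3 lower (NGFR, RND1 and SRGAP3), and R50 12 h called 1 lower (FLRT2), against a background of 2.8% and 1.75%. The median over the 79 was -0.04 in R100.

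On D15, after wash-out and recovery, none of the 70 genes was called in R100, R50 24 h or R50 12 h, and limma called no gene at all (background 0). At an unadjusted p under 0.05 limma counted 9, 5 and 5 of the 70 (background 7.21%, 3.28% and 3.47%). Without R100 replicate 3 they were 1, 5 and 5 (background 3.58%, 4.06% and 5.12%), and without DMSO replicate 1 they were 8, 5 and 6 (background 8.07%, 4.69% and 3.83%). The counts of called guidance genes stayed at 0 without either array. Without DMSO replicate 1 the counts over all genes were 0 in R100, 1 in R50 24 h and 2 in R50 12 h. None of the 10 genes called on D8 was called on D15. SEMA3D measured 10.34, 10.69 and 10.35 in DMSO and 10.09, 10.54 and 10.33 in R100 (log2 fold change -0.14 ± 0.17), and the groups overlapped. NTN1 measured 6.63, 6.45 and 6.30 in DMSO and 6.62, 6.32 and 5.59 in R100, also with overlap (-0.28 ± 0.20, and from -0.51 to 0.01 with 1 array left out). SEMA5B was at 0.10 ± 0.14, SEMA3B at -0.02 ± 0.17 and PLXNC1 at 0.20 ± 0.17. Without R100 replicate 3 these 3 were at 0.03, -0.08 and 0.02.

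The gene of each family with the smallest p in R100 on D15 did not pass adjustment. SEMA4F was at -0.28 (adjusted p = 0.557), NRP2 at 0.23 (adjusted p = 0.644), EFNA2 at -0.41 (adjusted p = 0.644) and EPHA5 at 0.30 (adjusted p = 0.644), by limma. Without R100 replicate 3, NRP2 was at 0.13 and EFNA2 at -0.19. The probes of NRP2 in R100 were of opposite sign and 0.90 apart. SLIT1 was lower than DMSO in all 3 exposures, at -0.32 ± 0.12 in R100, -0.35 ± 0.12 in R50 24 h and -0.56 ± 0.12 in R50 12 h (adjusted p = 0.644, 0.9998 and 0.9999). Its probes were of opposite sign in R100 and R50 24 h, 1.03 and 0.86 apart, and of the same sign but 0.83 apart in R50 12 h. Without DMSO replicate 1 the 3 changes were -0.20, -0.23 and -0.44. The 3 comparisons share their DMSO arrays.

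Fold above 1.5 with an unadjusted p under 0.01 held on D15 for SEMA3C in R100 and PLXNA2 in both R50 exposures (background 0.763%, 0.24% and 0.452%). SEMA3C, a secreted semaphorin, measured 6.69, 6.86 and 7.00 in DMSO and 6.29, 6.72 and 4.96 in R100. Replicate 3 of R100, the array that stood apart, was the lowest. The change was -0.86 ± 0.29 with it and -0.34 without it. PLXNA2 was above background on 1 of 3 DMSO arrays and on no R50 array of D15, so its differences of -0.76 and -0.74 (adjusted p = 0.9998 and 0.9999) compare dim signals. The R50 12 h difference was -0.43 without R50 12 h replicate 3, and with a normexp offset of 50 the differences were -0.23 and -0.22.

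The R100 change on D15 minus that on D8 was tested in the same fit, and 2 of the 70 were called (2.86% against 1.92% of all genes). Both are receptors. EPHA5, which binds mainly A-type ephrins, measured 8.25, 8.36 and 8.11 in DMSO and 7.62, 7.84 and 7.99 in R100 on D8. On D15 it measured 8.77, 8.41 and 8.65 in DMSO and 8.96, 8.77 and 9.00 in R100. Every R100 array lay below every DMSO array on D8 and above every DMSO array on D15. In either direction, arrays did not overlap for 38.6% of the 70 on D8 (background 28.5%) and 14.3% on D15 (background 7.84%). The change went from -0.42 to 0.30, a difference of 0.72 ± 0.17 (adjusted p = 0.025), with 0.81, 0.90 and 0.44 within slides 1, 2 and 3.

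UNC5A moved the opposite way. It measured 6.46, 6.34 and 6.55 in DMSO and 7.13, 7.04 and 6.78 in R100 on D8. On D15 it measured 7.50, 7.58 and 7.41 in DMSO and 7.22, 7.43 and 6.85 in R100. R100 lay above DMSO on D8 without overlap, and on D15 the groups overlapped. The change went from 0.53 to -0.33, a difference of -0.86 ± 0.20 (adjusted p = 0.0275), with -0.93, -0.85 and -0.78 within slides. The change on D15 did not pass the test alone for either gene, and that of UNC5A was -0.17 without D15 R100 replicate 3.

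Neither difference between days kept its call without each array in turn. EPHA5 kept its size, from 0.62 to 0.72, but missed the threshold without D8 DMSO replicate 1 (adjusted p = 0.0577) or 2 (0.0711), D8 R100 replicate 1 (0.0829), D15 DMSO replicate 2 (0.0748), or D15 R100 replicate 1 (0.0522) or 3 (0.0568). UNC5A missed it without D8 DMSO replicate 1 (0.0588) or 2 (0.0746), D8 R100 replicate 1 (0.0853) or 2 (0.0615), D15 DMSO replicate 1 (0.0547) or 2 (0.0735), or D15 R100 replicate 3 (-0.70, adjusted p = 0.0628). Without D15 R100 replicate 3 neither gene was called and NTN1 was. PLXNC1 at 0.87 (adjusted p = 0.0633) and SEMA3D at 0.86 (adjusted p = 0.0644) did not pass; with the slide as a replicate block SEMA3D was called (0.85, adjusted p = 0.0277). Of the 79 further pathway genes 3 were called (background 1.92%), FLRT2 (log2 fold change 0.96 ± 0.22, adjusted p = 0.0257), SRGAP3 (log2 fold change 0.85 ± 0.21, adjusted p = 0.0391) and, in the other direction, the Nogo receptor RTN4R (log2 fold change -0.61 ± 0.15, adjusted p = 0.0305).

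**Figure D4:**
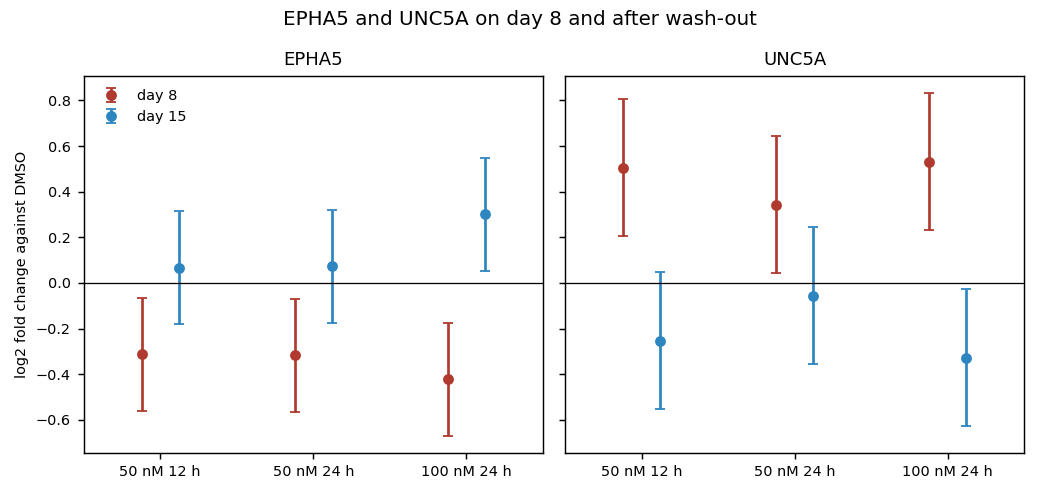
Log2 fold change against DMSO of the same day (y axis) for EPHA5 and UNC5A in each exposure (x axis), on D8 and D15, with 95% confidence intervals from limma. In R100 EPHA5 stands at -0.42 on D8 and 0.30 on D15, and UNC5A at 0.53 and -0.33.

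Between D8 and D15 in DMSO, 16 of the 70 guidance genes changed (22.9% against 12.2% of all genes), 10 higher and 6 lower on D15 (background 5.79% and 6.38%). Of the 14 EPH receptors 4 rose and none fell, of the 3 SLIT ligands 2 rose, and of the 5 netrin receptors 1 rose and 2 fell. The median size without sign was 0.37 over the 70 and 0.26 over all genes. The DMSO arrays of the 2 days did not overlap for 37 of the 70, or 52.9% (background 40%). Over the same interval all 6 markers of cycling cells fell, with a summed signal of 428 to 1014 on D8 and 148 to 180 on D15. The dopaminergic markers summed to 2133 to 2255 and 1175 to 1364, with TH and SLC6A3 lower and NR4A2 and LMX1B higher. The neuron markers summed to 208826 to 239531 and 240304 to 281644. The part of these shifts in the results was not tested.

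EPHA4, a receptor for both ephrin classes, had the largest change of the 70. It measured 7.14, 7.68 and 7.65 in DMSO on D8 and 10.66, 10.56 and 10.40 on D15. Every D15 array was far above every D8 array. The rise was 8.27-fold (log2 fold change 3.05 ± 0.16, adjusted p = 6.26e-11), and it was 3.55, 2.87 and 2.73 within slides 1, 2 and 3. The 9 rotenone arrays of D15 lay between 10.14 and 10.71. Without D15 DMSO replicate 1, whose scan name does not give DMSO, 17 of the 70 were called, the added gene being EFNB2.

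EPHA10, EPHA8 and EPHA6 also rose. The first of them, which lacks kinase activity, measured 5.86, 5.96 and 5.70 on D8 and 6.99, 6.93 and 7.22 on D15, with no overlap (log2 fold change 1.21 ± 0.13, adjusted p = 1.96e-06). EPHA8 was above background on all 3 arrays of DMSO on D15 and on none on D8. With each D8 array set no lower than its dimmest probe above background, it was 2.06-fold higher on D15. By limma, on the signals as measured, its adjusted p was 0.0036. Its log2 fold change ran from 0.45 to 1.90 over the alternative settings and with 1 array left out. EPHA6 was above background on 2 of 3 arrays on D15 and none on D8. With the D8 arrays set in the same way it was 1.61-fold higher (limma's adjusted p = 0.0123 on the signals as measured). Its 2 probes were of opposite sign and 1.44 apart, and its call was lost without D8 DMSO replicate 1 or D15 DMSO replicate 2. Among the ephrins EFNB1, which binds mainly B-type receptors, fell from 10.47, 10.81 and 10.48 to 9.86, 9.82 and 9.83, without overlap (log2 fold change -0.75 ± 0.11, adjusted p = 4.99e-05).

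All 3 SLIT ligands were higher on D15, and 2 were called. SLIT2 measured 6.30, 6.25 and 6.15 on D8 and 6.78, 7.31 and 7.07 on D15 (log2 fold change 0.82 ± 0.15, adjusted p = 0.000651). SLIT3 measured 5.28, 5.36 and 5.42 and 6.31, 6.24 and 6.30 (log2 fold change 0.93 ± 0.22, adjusted p = 0.00408). Neither overlapped between the days. SLIT1 was at 0.46 (adjusted p = 0.0106). None of the 4 ROBO receptors was called; ROBO1 was at -0.02 (adjusted p = 0.966) and ROBO2 at -0.29 (adjusted p = 0.132).

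The netrin receptors changed in opposite directions. DCC, the attractive receptor, measured 8.06, 8.04 and 7.76 on D8 and 6.36, 6.80 and 6.46 on D15. It fell 2.67-fold without overlap (log2 fold change -1.42 ± 0.19, adjusted p = 1.41e-05). UNC5A, a repulsive receptor, rose from 6.46, 6.34 and 6.55 to 7.50, 7.58 and 7.41 (log2 fold change 1.04 ± 0.14, adjusted p = 2.27e-05), while UNC5D fell from 7.16, 7.19 and 7.02 to 6.42, 6.44 and 6.58 (log2 fold change -0.64 ± 0.14, adjusted p = 0.00255). NTN1 fell by 0.59 ± 0.20 (adjusted p = 0.04), the weakest of the 16 by adjusted p. With the slide as a replicate block it was at -0.61 (adjusted p = 0.0535). It was also lost without D8 DMSO replicate 2 (adjusted p = 0.0983) or 3 (0.14), or D15 DMSO replicate 2 (0.0908) or 3 (0.131). UNC5B was at -0.02 (adjusted p = 0.946) and UNC5C at -0.41 (adjusted p = 0.0145).

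**Figure D5:**
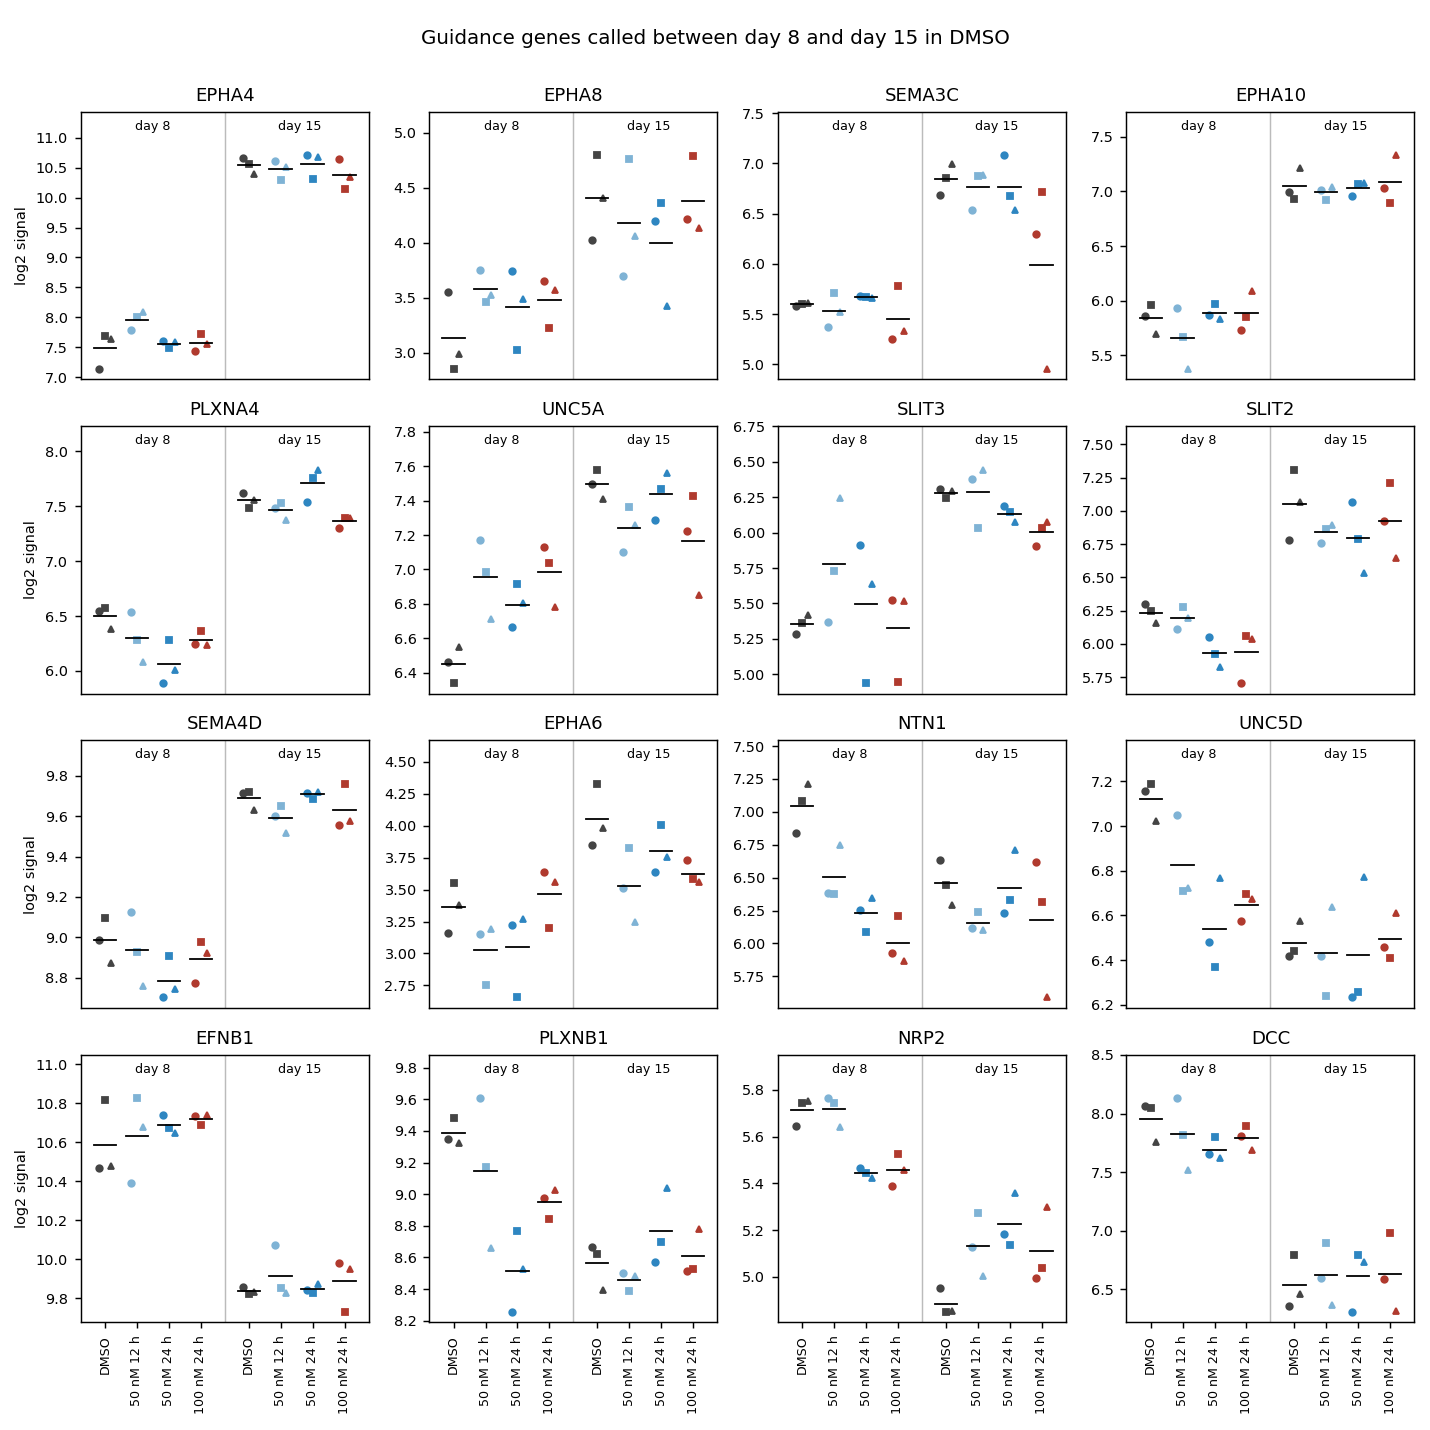
Log2 signal (y axis) of the 16 genes called between D8 and D15 in DMSO, by group (x axis); circles, squares and triangles are replicates 1, 2 and 3 and lines are group means. EPHA4 stands at 7.14 to 7.68 in DMSO on D8 and 10.40 to 10.66 on D15, and DCC at 7.76 to 8.06 and 6.36 to 6.80.

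Of the semaphorins SEMA3C and SEMA4D rose. SEMA3C measured 5.58, 5.60 and 5.61 on D8 and 6.69, 6.86 and 7.00 on D15 (log2 fold change 1.25 ± 0.29, adjusted p = 0.00337). SEMA4D, the transmembrane ligand of PLXNB1, rose by 0.71 ± 0.10 (adjusted p = 2.1e-05). PLXNB1 fell over the same days, from 9.35, 9.48 and 9.32 to 8.67, 8.62 and 8.40 (log2 fold change -0.82 ± 0.18, adjusted p = 0.0024). None of the 3 genes overlapped between the days.

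Of the 2 neuropilins and 4 A-type plexins, NRP2 and PLXNA4 were called. NRP2 fell from 5.64, 5.74 and 5.75 to 4.95, 4.85 and 4.85 (log2 fold change -0.83 ± 0.09, adjusted p = 1.64e-06), and NRP1 was at 0.07 (adjusted p = 0.732). PLXNA4 rose from 6.55, 6.57 and 6.38 to 7.62, 7.48 and 7.55 (log2 fold change 1.05 ± 0.12, adjusted p = 1.53e-06). Its 5 probes gave 1.87, 1.39, 0.79, 1.43 and -0.22, so 4 were above 0 and 1 below it. PLXNA1 was at 0.37 (adjusted p = 0.0132) and PLXNA3 at -0.52 (adjusted p = 0.0189). SEMA3D was at 0.44 (adjusted p = 0.0661) between the days.

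Of the 79 further pathway genes, 16 were called between the days, 10 higher and 6 lower on D15 (background 12.2%). NELL2, a secreted ligand of ROBO3, rose by 1.45 ± 0.09 (adjusted p = 7.98e-10), and FLRT3 and FLRT2 rose by 1.36 and 1.21. CNTN2, an adhesion molecule of growing axons, fell by 1.93 ± 0.12 (adjusted p = 8.19e-10). The others that rose were DSCAM, CNTN1, RRAS, ABLIM3, SRGAP1, VAV3 and TIAM1, and the others that fell were RGMB, RTN4R, MICAL1, NGEF and VAV2. The median over the 79 was 0.06.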

How the data were processed

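RNA was hybridised to Agilent SurePrint G3 8x60K arrays, and the deposited files hold 1-dye spot intensity values from Agilent Feature Extraction (11.5.1.1 per the labels; the file headers give 12.0.0.7 for slide 2 and 11.5.1.1 for the others). Per the paper's methods, median signals were background-corrected by normexp, quantile-normalized and batch-corrected by parametric ComBat. The offset of 0, slide 1 as the batch and groups as covariates were set here, and ComBat was coded anew. The paper describes its batch as a subset of arrays handled at another time and washed differently. Spots above 1.1 times the 95th percentile of negative controls on at least 3 arrays were kept. Spots were averaged to probes and probes to genes, named through RefSeq accessions. The authors also deposited a table of normalized log2 values, used as an alternative. limma 3.58.1 in R 4.3.3 was fitted to all 24 arrays (16 residual degrees of freedom), with Benjamini-Hochberg adjustment. This model held no slide term, and its degrees of freedom do not count the batch removed before it, which can make its p-values too small. An alternative with the slide as a replicate block is given below. Arrays have no read depth; their number limits the precision. Slide numbers paired the samples: over 84 same-slide pairs the deviations from group means correlated at 0.17 or more before batch correction. Named genes were those called for rotenone, those with the largest changes between days (8 each way), the smallest p of each family, and receptor partners; others were named after their values were seen. Genes and lists were chosen with earlier results of these data known. Promoters came from RefSeq GRCh38.p14; the array design uses hg19, so no gene coordinates are given. Figures used matplotlib 3.10.9. Scripts were tested on simulated data.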

Additional observations from a re-analysis of the deposited data

Results flagged for a closer look

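Among the 70 guidance genes, 2 had an R100 change that differed between D8 and D15 by limma's test of the difference itself. Both were called, which is 2.86% of the 70 against 1.92% of all genes. For EPHA5 the D15 change minus the D8 change was 0.72 ± 0.17 on the log2 scale (adjusted p = 0.025), and it was above 0 within 3 of 3 slides. For UNC5A it was -0.86 ± 0.20 (adjusted p = 0.0275), and it was below 0 within 3 of 3 slides. The slides hold the arrays that gave these p-values, so their signs are no separate test. Each call was lost in 10 of 23 alternatives, among them several with 1 array left out. Both were also lost without batch correction, with slides 2 and 3 only and with only the compared arrays in the fit.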

How the results depend on the processing

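With the replicate block in place of ComBat the counts of called guidance genes were 6 in R100, 7 in R50 24 h and 4 in R50 12 h on D8, 17 between the days in DMSO, 3 for the R100 change between days and 1 for R50 24 h against 12 h, and no count moved by over 1.5 times; between the days the block lost NTN1 and gained EPHA7 and SEMA3G, for the change between days it gained SEMA3D, and it called the same genes in the D8 exposures. In the order of these counts, the block called 728, 602, 389, 2610, 442 and 52 of all genes, and the main fit 733, 595, 372, 2586, 407 and 48. Without batch correction the counts were 3, 3 and 2 for the D8 exposures, 0 for the change between days and 0 between the times. Of all genes 407, 332, 170, 88 and 4 were then called. With slides 2 and 3 only, which leaves fewer arrays, the guidance counts were 0, 0, 0, 0 and 0. Of all genes 260, 213, 92, 11 and 0 were called. At limma's unadjusted p under 0.05 the guidance counts were 10, 10, 10, 9 and 7 of 69. The background at that p was 10.2% to 12.5% of all genes for the exposures and 9.09% and 4.73% for the others. Fitting only the arrays compared gave 3 in R50 24 h, 0 in R50 12 h, 0 for the change between days and 0 between the times. Over all genes that fit called 465, 68, 112 and 0. A normexp offset of 50 gave 3 in R50 24 h, 2 in R50 12 h and 9 between the days, with 327, 196 and 1459 of all genes. For the change between days, the filter on well-above-background probes gave 4 and the deposited values 5, with 526 and 576 of all genes. The cause of these shifts was not tested. Leaving out 1 array gave 2 to 7 in R50 24 h (2 without D8 DMSO replicate 2), 0 to 3 for the change between days and 1 to 2 between the times. Over all genes these ranges were 515 to 583, 274 to 441 and 27 to 118. On D15 every setting gave 0 of the 70 for the exposures. Of the single genes named, 580 values under alternatives stayed on their side of the threshold, 131 lost it, 14 gained it and 0 reversed. Called R100 changes of NTN1 and SEMA3D on D8 were lost with slides 2 and 3 only. Between the days DCC, EFNB1, EPHA10, EPHA4, PLXNA4, PLXNB1 and UNC5A kept their calls in all 17 alternatives. EPHA8, dim on D8, was lost with the offset of 50, with scaling to the 75th percentile and without batch correction, NRP2 with the offset and the scaling, SLIT2 with the offset and without batch correction, SLIT3 with these and with slides 2 and 3 only, UNC5D with the offset, the scaling, slides 2 and 3 only and processed signals and without batch correction, SEMA3C with slides 2 and 3 only, EPHA6 with the offset, the scaling, slides 2 and 3 only and the filter on well-above-background probes, SEMA4D with the brightest probe, and NTN1 in 11 of the 17.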
